A study of Homo sapiens with 12 samples.

Results

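Histones are the proteins that DNA is wrapped around. The genes for them form 2 classes that are expressed in different ways, and both were followed here in SW480, an established line of human colon cancer cells, with the level of GPD1L lowered or raised. Members were all genes listed under the older histone symbols (HIST1H, HIST2H, HIST3H, HIST4H, H1F, H2AF or H3F), at any level. That rule took 26 of the 14792 genes listed in either of the 2 deposited tables: 17 genes with a HIST symbol, called clustered here, and 9 with an H1F, H2AF or H3F symbol, called variant. The table of the knockdown held 25 of them among 13554 genes, the table of the overexpression 24 among 13583, and 23 were in both (14 clustered and 9 variant). HIST1H2BC and HIST2H2AC were listed in the knockdown table and HIST2H4B in the overexpression table.

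The 12 libraries formed 4 groups of 3: a GPD1L knockdown line (shGPD1L), its control hairpin line (shNC), a line overexpressing GPD1L (OE) and its empty vector line (Vector). All were stably transfected SW480 cells, so both control lines carry a construct too. GPD1L is named for its likeness to the cytosolic enzyme glycerol-3-phosphate dehydrogenase. Each arm is 1 line, and no source used here says whether it is a clone, how many hairpins were used, or whether a group's 3 libraries were grown as separate cultures. P-values therefore measure the spread between these libraries, which may be technical.

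Replication-dependent histone genes lie in clusters on chromosomes 1 and 6 and supply the core histones H2A, H2B, H3 and H4 and linker histone H1 while DNA is copied. Their messengers typically have no intron and end without a poly(A) tail, just after a short stem-loop that the stem-loop binding protein SLBP holds. Variant genes are scattered over the genome, are typically transcribed outside S phase as well, and give polyadenylated messengers, often from several exons. Several clustered genes are also known to give longer, polyadenylated messengers that run past the stem-loop. These libraries were made from RNA caught on oligo(dT) beads, so messengers that end at the stem-loop should largely be missed. A level of a clustered gene given here is that of its captured messengers, presumably mostly polyadenylated, though no tail was measured. The level of those missed is unknown.

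The stem-loop is printed for the clustered genes whose levels changed and had a searchable transcript, and for the variant gene that also holds it, since it is the feature that sets the classes apart. It is 16 bases long, with the 6 bases of each arm of the stem in capitals around a loop of 4 bases and 5 flanking bases on each side. Sequences are from the GENCODE release 29 transcripts of GRCh38, on the gene's strand.
HIST1H2AC, chr6:26124664-26124689, plus strand: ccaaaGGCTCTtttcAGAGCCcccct
HIST1H2BD, chr6:26158582-26158607, plus strand: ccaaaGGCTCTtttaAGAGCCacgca
HIST1H4I, chr6:27139649-27139674, plus strand: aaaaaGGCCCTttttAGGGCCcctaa
HIST2H2AA3, chr1:149842218-149842243, minus strand: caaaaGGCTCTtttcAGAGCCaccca
HIST2H2AA4, chr1:149851569-149851594, plus strand: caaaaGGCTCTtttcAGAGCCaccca
H2AFX, chr11:119094893-119094918, minus strand: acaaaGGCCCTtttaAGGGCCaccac

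All 14 clustered genes with a transcript annotated beyond the coding part held a stem-loop, against 1 of 9 variants. That variant, H2AFX, encodes H2A.X, the form of H2A that is phosphorylated at DNA breaks. Over all protein-coding genes of that annotation, 56 of 19922 (0.281%) held a match. That count includes the members themselves and genes annotated as coding part only. The core letters took 6 forms, and the form of HIST2H2AA3 was shared by 7 genes. HIST1H1C, HIST1H2BK and HIST2H2AC were annotated as coding part only, so the search could not bear on them. In 11 of the 14 clustered genes a transcript that holds the stem-loop ran at least 100 bases past it. The longest such run was 1128 bases in HIST1H2AC, 1729 in HIST2H2BE and 212 in HIST1H4I. It was only 35 bases in HIST2H2AA3 and HIST2H2AA4, and 39 in the HIST1H2BD transcript that holds the stem-loop. The letters AATAAA, the usual signal for a poly(A) tail, stood in the last 40 bases of a transcript of 11 of these 14 clustered genes and of 5 of the 9 variants. HIST1H2BD also had a transcript of 789 bases and 2 exons without the stem-loop, with AATAAA in its last 40 bases. Of the 17 clustered genes, 7 had a transcript with more than 1 exon. So most of the clustered genes seen here had an annotated transcript reaching past the point where the replication-dependent messenger ends.

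**Figure D1:**
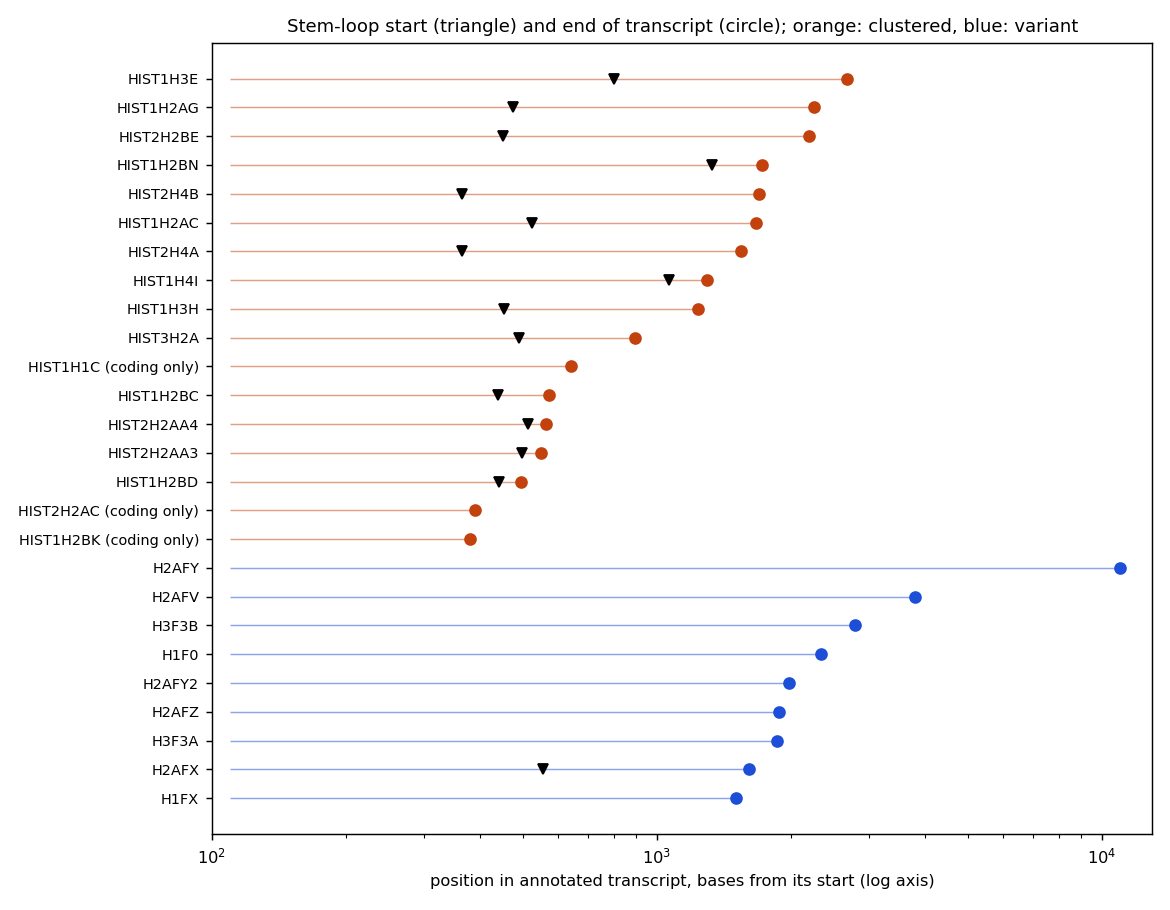
Place of the stem-loop (triangle) in 1 annotated transcript per gene, in bases from the transcript's start on a log axis. The circle marks the end of the transcript, orange for clustered and blue for variant genes, and the transcript shown is the longest that holds a stem-loop, or the longest where none does. The triangle stands far from the circle in HIST2H2BE (1729 bases) and next to it in HIST2H2AA3 (35 bases), and H2AFX is the only blue line with a triangle.

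Of the clustered genes, 10 lie on chromosome 6 and 7 on chromosome 1. HIST2H2AA3 (ENSG00000203812) and HIST2H2AA4 (ENSG00000272196) are copies of 1 histone H2A gene on opposite strands: all 549 bases of the annotated transcript of HIST2H2AA3 occur unbroken in that of HIST2H2AA4. How reads were split between the copies is not given in the sources used here, so they are not separate measures. Some counts that hold both are also given with the copies taken as 1. The other counts, and all medians over clustered genes, take each copy as a gene. The annotated transcripts HIST2H4A-201 and HIST2H4B-201, of a pair of genes for histone H4, likewise share 583 bases. HIST1H2BK (ENSG00000197903; chr6:27146418-27146798, minus strand) encodes an H2B. It is 381 bases of coding part in GENCODE, but its gene spans 8566 bases in RefSeq, and no source used here names the gene model behind its FPKM. That model bears on its level relative to other genes and on its share of any sum. Linker histone H1 is encoded by HIST1H1C (ENSG00000187837; chr6:26055787-26056428, minus strand), and an H4 by HIST1H4I (ENSG00000276180; chr6:27138588-27139881, plus strand). Variants named often below are H1F0 (ENSG00000189060; chr22:37805093-37807436, plus strand), a linker histone known from cells that divide little, and H2AFY2 (ENSG00000099284; chr10:70052796-70112280, plus strand), a macroH2A with a large extra domain. H2AFY2 overlaps AIFM2 on the opposite strand, as the variant H3F3B does UNK, and no source used here says that counting used the strand.

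GPD1L itself followed the labels. Its level read 8.68, 8.01 and 9.10 FPKM in shNC and 1.55, 1.26 and 2.23 in shGPD1L, and 10.7, 10.2 and 11.1 in Vector and 22.3, 22.8 and 22.1 in OE (limma adjusted p = 0.00675 and 4.74e-05 for the changes). FPKM counts fragments relative to transcript length and to all mapped fragments, and the depth behind it is unknown. The library shGPD1L 3 stood apart, with 29.1 on the first principal component of the knockdown table against -12.1 to 0.32 for the other 5. A list of 44 S phase and replication genes stood at a mean of -0.459 relative to shNC in that library, on the log2(FPKM + 1) scale, and at 0.0973 and 0.0857 in shGPD1L 1 and 2. Colon epithelial markers were present (8 of 9 listed in the knockdown table and 9 of 9 in the overexpression table, summing to 3799 to 5439 FPKM over the libraries). Of 14 markers of other cells, 2 of 6 for fibroblasts were listed (summed 1.15 to 2.31 FPKM), 1 of 5 for immune cells (CD14, 0.629 to 2.69 FPKM) and 0 of 3 for endothelium.

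Most histone messenger in these libraries came from the variants. Over the 14 clustered genes in both tables the summed level was 70.9 ± 4.17 FPKM (SD, n = 3) in shNC and 47.9 ± 2.06 in shGPD1L, with libraries from 66.2 to 74.2 against 45.7 to 49.8. It was 64.4 ± 4.16 FPKM in Vector and 104 ± 3.28 in OE, with libraries from 60.6 to 68.8 against 100.3 to 106. Thus the summed clustered level was lower in every shGPD1L library than in any shNC library, and higher in every OE library than in any Vector library. On the deposited scale HIST1H2BK gave a large part of it: without that gene the means over 13 genes were 41.2 FPKM in shNC and 30.8 in shGPD1L, and 45.3 in Vector and 67.4 in OE, and the libraries still did not overlap. With HIST2H2AA4 left out instead, so that the H2A copies enter once, the means were 63.3 and 43.1 FPKM and 56.1 and 91.6 FPKM.

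The 9 variants summed to 1100 ± 81.3 FPKM (SD, n = 3) in shNC, 1081 ± 215 in shGPD1L, 1196 ± 37.2 in Vector and 1173 ± 32.3 in OE. Here the groups overlapped in both comparisons, and the wide spread in shGPD1L came from shGPD1L 3 at 844 FPKM. Variants therefore made up 93.9% of the summed histone level in shNC, 95.6% in shGPD1L (libraries from 94.4% to 96.5%), 94.9% in Vector and 91.8% in OE. On these sums, which have no test, the ratio of variant to clustered messenger was 15.5 ± 0.288 (SD, n = 3) in shNC and 22.7 ± 5.40 in shGPD1L. It was 23.5 and 27.6 in shGPD1L 1 and 2 but 16.9 in shGPD1L 3, near the highest shNC library at 15.8. The ratio was 18.6 ± 0.643 in Vector and 11.3 ± 0.676 in OE. In bulk RNA, fewer cells making a messenger and less of it per cell cannot be told apart.

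**Figure D2:**
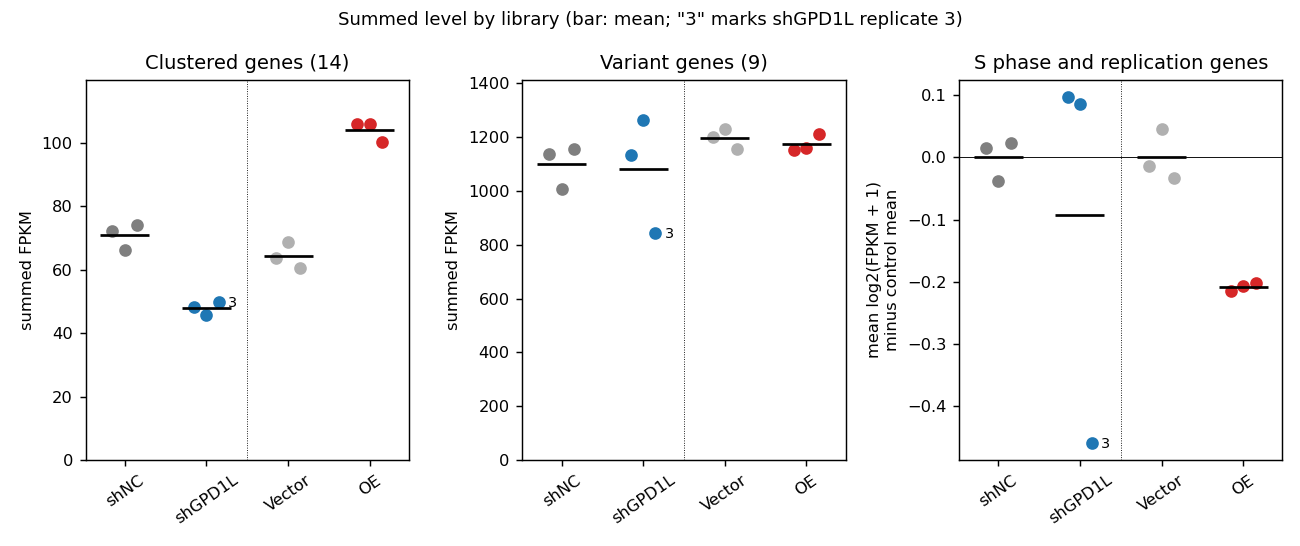
Summed FPKM per library of the 14 clustered genes (left) and the 9 variants (middle), and the mean of log2(FPKM + 1) over the S phase and replication list relative to the control group (right). Points are libraries, bars are group means, and the dotted line parts the 2 tables. Clustered sums separate by group in both comparisons, variant sums do not, and shGPD1L 3 is lowest in the middle and right panels but not on the left.

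The knockdown was compared with its control to ask how histone messengers differ when GPD1L is low. HIST1H2BK, HIST2H2AA3 and HIST2H2AA4 fell, the last pair being copies, and no clustered gene tested passed as higher. Of the 16 clustered genes listed, 11 reached the mean of 1 FPKM needed for the test, and HIST1H2AG, HIST1H2BN, HIST1H3E, HIST1H3H and HIST2H4A did not. A gene was called at an adjusted p under 0.05 in limma, with adjustment over all 12156 genes tested. Called lower were 3 of the 11 clustered genes and 0 of the 9 variants, where 0.477% of all genes were called lower, 0.115% higher and 0.592% in either direction. The median change on the log2(FPKM + 1) scale was -0.24 over the 11 clustered genes, of which 10 were below 0, against -0.04 over all genes tested, of which 58.4% were below 0. Over the 9 variants it was -0.01, and its sign turned under several settings (0.00 with equal totals, 0.03 with median-of-ratios scaling and 0.01 without shNC 1). Without shGPD1L 3 the medians were -0.37 over the clustered genes and 0.12 over the variants.

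HIST1H2BK, the highest clustered gene, measured 30.8, 26.4 and 31.8 FPKM in shNC and 16.9, 16.9 and 17.6 in shGPD1L. The groups did not overlap, and shGPD1L was the tighter of the pair. The mean in shGPD1L was 0.577 times that in shNC, and the change on the log2(FPKM + 1) scale was -0.76 (SE 0.0912, limma adjusted p = 0.0299).

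HIST2H2AA3 was at 7.75, 7.70 and 8.24 FPKM in shNC and at 4.74, 5.13 and 4.94 in shGPD1L. Its copy HIST2H2AA4 was at 7.59, 7.44 and 7.79 FPKM and at 4.64, 4.97 and 4.77. Again no shGPD1L library reached an shNC library. The log2(FPKM + 1) changes were -0.58 and -0.57 (limma adjusted p = 0.0341 for both), and the means fell to 0.625 and 0.630 of shNC. As these are copies, the 3 calls are 2 separate measures. The 3 calls rested on every library but shGPD1L 3: without any 1 shNC library, or without shGPD1L 1 or 2, none of them passed, with adjusted p-values from 0.0663 to 0.216 and log2 changes of HIST1H2BK from -0.70 to -0.84. After quantile normalization HIST1H2BK passed and the H2A copies did not (limma adjusted p = 0.0528).

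The other clustered genes did not pass in the knockdown. HIST1H4I was at 2.39, 1.68 and 1.69 FPKM in shNC and at 1.09, 1.17 and 1.39 in shGPD1L, without overlap (log2 change -0.39, limma adjusted p = 0.225). HIST2H2BE, an H2B gene, did not overlap either (log2 change -0.31, limma adjusted p = 0.31). That made 5 of 11 clustered genes with every shGPD1L library below every shNC library, against 15.1% of all genes tested.

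HIST1H1C was at 8.71, 8.90 and 8.72 FPKM in shNC and at 9.24, 6.80 and 6.11 in shGPD1L. Its first shGPD1L library was the highest of the 6, so the groups overlapped (log2 change -0.24, limma adjusted p = 0.421). Overlap was also seen for HIST1H2AC, an H2A gene, at 3.21, 3.06 and 2.31 FPKM against 2.25, 2.24 and 2.55 (-0.20, limma adjusted p = 0.462). HIST1H2BD, an H2B gene, was at 2.67, 3.06 and 3.73 FPKM in shNC and at 2.18, 1.98 and 3.53 in shGPD1L (-0.24, limma adjusted p = 0.54). For this gene shGPD1L 3 lay within the shNC range, and without that library its log2 change was -0.43 (limma adjusted p = 0.109). HIST1H2BC, HIST2H2AC and HIST3H2A had log2 changes between -0.09 and 0.02, which were -0.23, 0.05 and -0.13 without shGPD1L 3. Among the genes under the filter, HIST2H4A was lower in every shGPD1L library than in any shNC library, and the other 4 overlapped. Of those, HIST1H2AG and HIST1H3H had the higher mean in shGPD1L, and HIST1H2BN and HIST1H3E the lower.

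No variant passed in the knockdown, where 2 of 9 had an unadjusted limma p under 0.05. H1F0 was at 127, 121 and 116 FPKM in shNC and at 143, 143 and 126 in shGPD1L, with the lowest shGPD1L library below the highest control (log2 change 0.17, limma adjusted p = 0.36). H1FX, another linker histone variant, was at 75.3, 65.6 and 74.7 FPKM in shNC and at 85.3, 102 and 78.2 in shGPD1L (0.29, limma adjusted p = 0.269). It was the variant whose groups did not overlap, 1 of 9 higher, against 9.54% of all genes tested.

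H3F3A, which with H3F3B encodes the replacement form of histone H3, was at 163, 171 and 160 FPKM in shNC and at 178, 180 and 138 in shGPD1L. H2AFZ, for the variant H2A.Z found at many promoters, was at 360, 267 and 394 FPKM in shNC and at 296, 411 and 182 in shGPD1L. In both genes shGPD1L 3 was the lowest of the 6 libraries. Their log2 changes were -0.00 and -0.26 (limma adjusted p = 0.993 and 0.688), and without shGPD1L 3 they were 0.12 and 0.05. H2AFX, the variant with a stem-loop, was at 65.3, 67.6 and 66.1 FPKM in shNC and at 98.4, 85.8 and 46.2 in shGPD1L. Its log2 change was 0.14 (limma adjusted p = 0.821), and without shGPD1L 3 it was 0.46 and passed (limma adjusted p = 0.0185). H2AFY2 was at 17.5, 14.5 and 16.0 FPKM in shNC and 14.3, 15.8 and 16.0 in shGPD1L, with overlapping groups (-0.05, limma adjusted p = 0.824). H2AFV (a second gene for H2A.Z), H2AFY (macroH2A) and H3F3B had log2 changes of -0.28, -0.01 and -0.08, which were -0.21, 0.03 and 0.14 without shGPD1L 3. The part of shGPD1L 3 in the variants' spread was not tested beyond leaving it out.

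**Figure D3:**
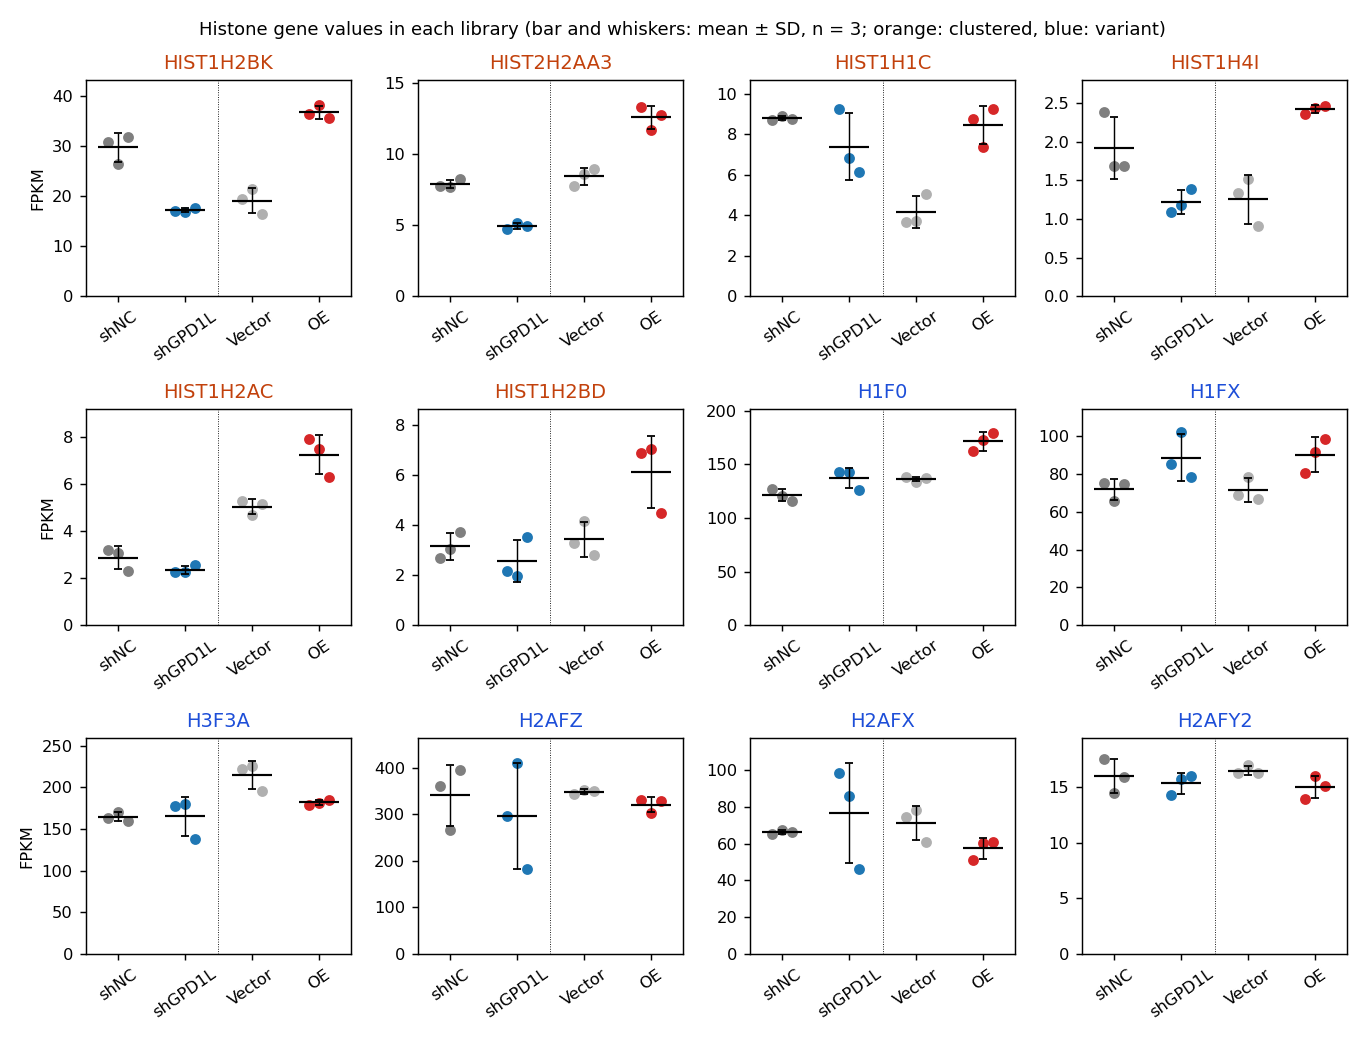
FPKM of 12 histone genes in each library, with group mean and SD (n = 3); names are orange for clustered and blue for variant genes, and each axis starts at 0. HIST1H2BK and HIST2H2AA3 are lower in all shGPD1L libraries and higher in all OE libraries than in their controls. In H2AFX and H2AFZ shGPD1L 3 lies lowest.

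In OE against Vector, 7 of 13 clustered genes tested rose and none fell, while among the 9 variants H1F0 and H1FX rose and H3F3A fell. Over all 12208 genes tested, 12.2% were called higher, 10.3% lower and 22.4% in either direction. HIST1H2AG and HIST1H2BN were under the filter, and HIST1H3H passed it with a Vector mean below 1 FPKM. The median change on the log2(FPKM + 1) scale was 0.53 over the clustered genes, of which 12 of 13 were higher, -0.06 over the variants, of which 6 were lower, and 0.02 over all genes. Groups did not overlap, with OE higher, in 9 of 13 clustered genes and 3 of 9 variants, against 24.2% of all genes, and with OE lower in 0 and 4, against 17.6%. Counting the H2A copies as 1 measure leaves 6 of 12 clustered genes called higher. The H4 genes HIST2H4A and HIST2H4B, which also share sequence, still enter that count as 2 genes, and neither was called. In the same libraries all 8 colon epithelial markers tested were called: KRT8, KRT18 and KRT19 rose, and EPCAM, CDH1, VIL1, CDX1 and CDX2 fell, the last 2 by 0.70 and 0.59 (limma adjusted p = 0.000554 and 0.00217). The 2 markers of other cells that were tested fell, CD14 by 0.64 and PDGFRB by 0.41 (limma adjusted p = 0.00803 and 0.0199), from levels of a few FPKM or less. In the knockdown 0 of 8 epithelial markers and not CD14 were called (4 epithelial markers with an unadjusted p under 0.05). The part of these markers in the histone changes was not tested.

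HIST1H2BK was at 19.3, 21.4 and 16.4 FPKM in Vector and at 36.4, 38.2 and 35.6 in OE. The lowest OE library lay well above the highest Vector library, and the mean was 1.93 times higher. On the log2(FPKM + 1) scale it rose by 0.92 (SE 0.0862, limma adjusted p = 0.00054).

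HIST1H1C was at 3.68, 3.71 and 5.04 FPKM in Vector and at 8.73, 7.38 and 9.23 in OE. The groups did not overlap although Vector 3 stood above the other 2 controls. The ratio of means was 2.04, and the gene rose by 0.88 (SE 0.118, limma adjusted p = 0.00227). HIST1H2BD was at 3.27, 4.17 and 2.81 FPKM in Vector and at 6.86, 7.04 and 4.47 in OE. OE 3 came close to Vector 2, and the change was 0.68 (SE 0.165, limma adjusted p = 0.0222). That call ended without Vector 1, Vector 3, OE 1 or OE 2 (limma adjusted p from 0.0595 to 0.0701).

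HIST1H4I was at 1.34, 1.52 and 0.903 FPKM in Vector and at 2.36, 2.44 and 2.46 in OE, a tight group above all controls (0.61, limma adjusted p = 0.00881). HIST2H2AA3 was at 7.79, 8.60 and 8.93 FPKM in Vector and at 13.3, 11.7 and 12.8 in OE. Its copy HIST2H2AA4 was at 7.65, 8.35 and 8.74 FPKM and at 13.0, 11.8 and 12.6. Both copies were separated by group, with changes of 0.53 and 0.55 (limma adjusted p = 0.00239 and 0.00164). HIST1H2AC was at 5.27, 4.68 and 5.13 FPKM in Vector and at 7.91, 7.47 and 6.30 in OE, again without overlap (0.44, limma adjusted p = 0.0103).

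The other 6 clustered genes tested in OE did not pass. HIST1H3H, HIST1H3E, HIST2H4A and HIST2H4B, which encode H3 or H4, had log2 changes from 0.26 to 0.61 with limma adjusted p-values from 0.0511 to 0.226. HIST2H2BE had a change of 0.14 (limma adjusted p = 0.288). HIST3H2A, an H2A gene on chromosome 1 far from the other 6 there, was at 8.49, 9.57 and 6.76 FPKM in Vector and at 7.27, 9.17 and 8.21 in OE, a change of -0.00. It was at 3.54, 2.25 and 4.31 FPKM in shNC and at 3.37, 2.50 and 4.30 in shGPD1L, a change of 0.02. In the 2 genes under the filter, HIST1H2AG and HIST1H2BN, every OE library lay above every Vector library, at levels below 1 FPKM.

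Among the variants, H1F0 was at 138, 134 and 137 FPKM in Vector and at 162, 173 and 179 in OE. No library overlapped, and the linker histone rose by 0.33 (SE 0.0463, limma adjusted p = 0.0028). H1FX was at 68.9, 78.5 and 66.6 FPKM in Vector and at 80.5, 91.7 and 98.5 in OE, where the lowest OE library came close to the highest control (0.33, limma adjusted p = 0.0253). H3F3A was at 223, 226 and 195 FPKM in Vector and at 179, 182 and 185 in OE, with all OE libraries below all controls (-0.23, SE 0.0579, limma adjusted p = 0.0238). The calls of H1FX and H3F3A each ended without 1 of 4 single libraries (highest adjusted p = 0.0739 for H1FX and 0.0811 for H3F3A), and that of H3F3A also after quantile normalization (0.0654) and without the intensity trend (0.0506).

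H2AFZ was at 344, 353 and 349 FPKM in Vector and at 331, 302 and 328 in OE, and H2AFY2 at 16.3, 17.0 and 16.2 and at 13.9, 16.0 and 15.1. OE libraries lay below all controls for both genes, by little (-0.12 and -0.13, limma adjusted p = 0.0819 and 0.161). H2AFX was at 74.3, 78.5 and 60.9 FPKM in Vector and at 51.0, 60.2 and 61.0 in OE, where its groups overlapped narrowly (-0.30, limma adjusted p = 0.063). So the variant that carries the stem-loop was not higher in OE. H2AFV, H2AFY and H3F3B changed by -0.06 to 0.09 on the log2 scale, and none passed.

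The tables share no libraries, so the 2 changes of each gene are separate measurements. By the sign of the mean change, 8 of 9 clustered genes tested in both were lower in shGPD1L and higher in OE than controls. The other was HIST3H2A. With the H2A copies taken as 1 the count was 7 of 8. Of the 9 variants 1 did so (H3F3B), 2 were higher in both (H1F0 and H1FX) and 5 lower in both, among them H3F3A, whose change of -0.00 in the knockdown turned to 0.01 with equal totals and 0.04 with median-of-ratios scaling. Signs of the variants rested on shGPD1L 3: without it H2AFY, H2AFZ, H3F3A and H3F3B were above 0 in the knockdown, which left 0 of 9 lower then higher, 3 higher in both and 2 lower in both, while the clustered count was again 8 of 9. Over all 11208 genes tested in both tables, 34.0% were lower with the knockdown and higher with the overexpression. By calls instead of signs, HIST1H2BK and the H2A copies passed in both comparisons, and no other member did.

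**Figure D4:**
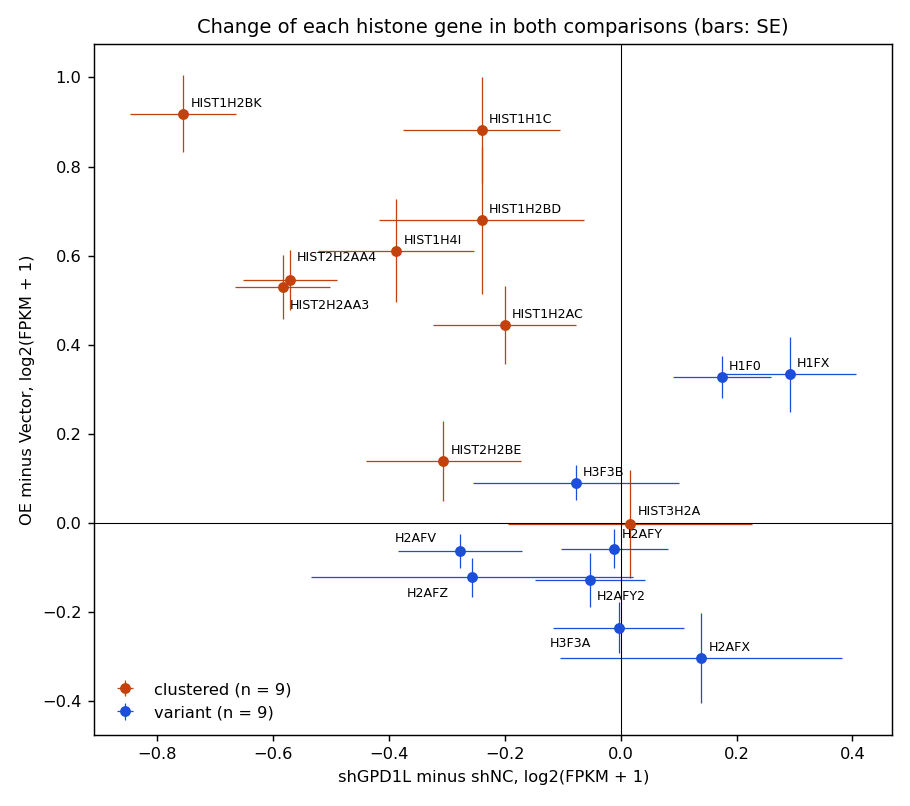
Change of each histone gene tested in both tables, shGPD1L minus shNC across and OE minus Vector upwards, on the log2(FPKM + 1) scale; bars are standard errors, orange marks clustered and blue variant genes (9 each). Apart from HIST3H2A the clustered genes lie in the upper left, with HIST1H2BK at its outer end. Of the variants, 6 lie below the horizontal line, and H1F0 and H1FX lie at the upper right.

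The difference between both effects, (OE minus Vector) minus (shGPD1L minus shNC), was tested in 1 limma fit over the 12 libraries. It passed for 7 of 9 clustered genes (6 of 8 with the H2A copies taken as 1), all with the higher effect in overexpression, and for 0 of 9 variants, of which 0 had an unadjusted p under 0.05. The overexpression change is a part of this difference, so a gene can pass on that change alone. These 7 were the clustered genes called in OE, and only HIST1H2BK and the H2A copies among them were also called in the knockdown. Of all 11208 genes tested, 9.14% were called higher, 5% lower and 14.1% in either direction. The median difference was 1.00 over the clustered genes, 0.06 over all genes and 0.04 over the variants. The variants' median ranged from -0.05 (without shGPD1L 3) to 0.15 (without shGPD1L 2), and it was also below 0 with median-of-ratios scaling (-0.02), without OE 3 (-0.02) and without Vector 3 (-0.00). HIST1H2BK had the greatest difference of the members (1.67, SE 0.13, limma adjusted p = 0.000104). HIST2H2AA3 and HIST2H2AA4 followed with HIST1H1C, at 1.11, 1.12 and 1.12 (limma adjusted p = 0.000143, 0.000122 and 0.00468). HIST1H4I, HIST1H2BD and HIST1H2AC differed by 1.00, 0.92 and 0.65 (limma adjusted p = 0.00492, 0.0391 and 0.0168), and that of HIST1H2BD ended in 10 of 21 alternative settings. HIST2H2BE did not pass (0.45, limma adjusted p = 0.0704). H1F0 and H1FX, which rose in OE and did not pass in the knockdown, had differences of 0.15 and 0.04 (limma adjusted p = 0.301 and 0.883). Without shGPD1L 3 the count of members was 10: HIST2H2BE joined the clustered genes (0.50, limma adjusted p = 0.0342), and H2AFX and H3F3A passed in the opposite direction (-0.77 and -0.35, limma adjusted p = 0.00352 and 0.0121).

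**Figure D5:**
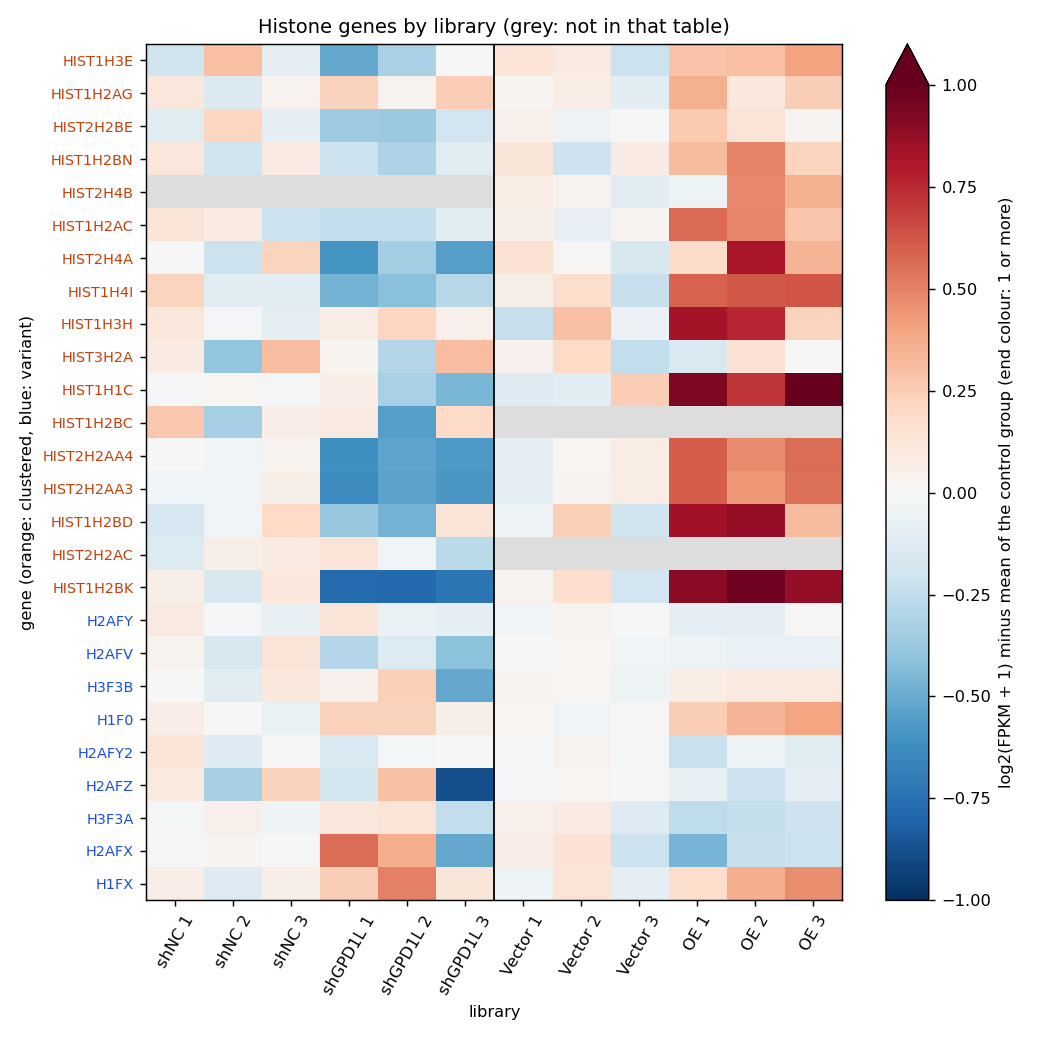
Log2(FPKM + 1) of all 26 histone genes in each library, minus the mean of the control group of its table; red is higher, blue lower and grey marks a gene not listed in that table. The clustered genes (orange names) are mostly red in OE, and 9 of the 16 listed in the knockdown table are blue in all 3 shGPD1L libraries. HIST1H2AG and HIST1H3H are blue in none of those, and the shGPD1L 3 column is darkest blue at H2AFZ.

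Promoters of clustered histone genes are known for a few short elements: the TATA box and CCAAT box near the start, an octamer in H2B genes bound by OCT1, and a box particular to H1 genes. The 250 bases before the start are printed for the highest clustered gene and for 2 others that rose with overexpression and encode another histone, with matches in capitals. Searched on both strands were the letters CCAAT of the CCAAT box and TATAA of the TATA box, ATTTGCAT for the octamer, and AAACACA for the H1 box, and matches can overlap. Sequences are from RefSeq (GRCh38.p14), on the gene's strand.
HIST1H2BK, chr6:27146859-27147108, minus strand: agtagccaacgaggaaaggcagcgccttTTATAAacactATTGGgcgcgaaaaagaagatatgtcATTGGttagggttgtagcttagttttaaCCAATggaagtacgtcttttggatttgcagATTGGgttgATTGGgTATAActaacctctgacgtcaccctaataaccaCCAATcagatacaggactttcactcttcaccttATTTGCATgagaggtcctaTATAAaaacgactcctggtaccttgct
HIST1H1C, chr6:26056471-26056720, minus strand: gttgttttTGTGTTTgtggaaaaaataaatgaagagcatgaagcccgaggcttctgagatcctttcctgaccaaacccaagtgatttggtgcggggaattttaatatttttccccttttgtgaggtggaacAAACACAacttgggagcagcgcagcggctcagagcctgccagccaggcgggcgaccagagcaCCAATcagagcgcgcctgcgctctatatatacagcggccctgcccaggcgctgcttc
HIST2H2AA3, chr1:149842751-149843000, minus strand: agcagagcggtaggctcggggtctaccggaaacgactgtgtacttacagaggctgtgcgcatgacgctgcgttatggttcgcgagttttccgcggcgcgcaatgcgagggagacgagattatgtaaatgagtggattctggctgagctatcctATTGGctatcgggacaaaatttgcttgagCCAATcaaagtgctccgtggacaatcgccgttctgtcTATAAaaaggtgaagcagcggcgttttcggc

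HIST1H2BK held the octamer from -46 to -39 and a TATAA from -27 to -23, counted back from the start, and its most distant TATAA matches on both strands overlapped. HIST1H1C held the H1 box from -119 to -113 and again on the other strand, and HIST2H2AA3 held TATAA from -31 to -27. RefSeq promoters matched 25 of the 26 members, all but H1F0, so H1FX was the only linker histone variant searched. CCAAT was found in 15 of 17 clustered and 5 of 8 variant promoters, against 33.0% of all 27305 promoters, and TATAA in 13 of 17 and 4 of 8, against 19.6%. The octamer was in 6 of 17 clustered promoters (3 of 5 of H2B genes) and 1 of 8 variant promoters, against 1.66%. The H1 box was in 1 of 17 (HIST1H1C, the only clustered gene here for an H1) and 0 of 8, against 4.95%. These matches are letters in a window and carry no measure of binding.

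Genes that make or handle histone messengers were read from a list of 32, from the SLBP and U7 processing machinery to the cyclin E and NPAT axis that drives histone transcription. None passed in the knockdown (1 of 32 with an unadjusted limma p under 0.05). In OE 3 rose and 7 fell, with a median of 0.04, where 12.2% of all genes rose and 10.3% fell. CCNE2 and CCNE1, the E cyclins, fell by 0.41 and 0.36 on the log2(FPKM + 1) scale (limma adjusted p = 0.0318 and 0.0186), and SRRT, which couples cap binding to RNA processing, fell by 0.37 (0.00171). SLBP itself, given here for its role at the stem-loop, was at 71.9, 69.8 and 65.3 FPKM in Vector and at 56.1, 57.1 and 55.6 in OE. It fell without overlap (-0.29, limma adjusted p = 0.00509) in the libraries in which clustered histone genes rose. NPAT, LSM10, LSM11 and CASP8AP2 did not pass in either comparison.

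Chaperones hand histones to DNA. Of 32 listed, none passed in the knockdown (5 with an unadjusted limma p under 0.05), and in OE 3 rose and 6 fell, with a median of 0.03, again beside 12.2% and 10.3% of all genes. ASF1A, a carrier of H3 and H4, rose by 0.41 and HJURP, which places the centromeric H3, by 0.33 (limma adjusted p = 0.00528 and 0.00328). CHAF1A, of the complex that loads H3 and H4 behind the replication fork, fell by 0.34 (0.00443).

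Since clustered histone genes are known for their tie to DNA synthesis, the 44 S phase and replication genes were read beside them. In OE 1 rose (RRM2) and 20 fell (12.2% and 10.3% over all genes), with a median of -0.20, and the list mean relative to Vector was -0.216, -0.206 and -0.202 in the 3 OE libraries. FEN1 and MCM3, for flap cutting and the replicative helicase, fell by 0.58 and 0.57 (limma adjusted p = 0.00188 and 0.000459), and UHRF1, which keeps DNA methylation through replication, by 0.50 (0.00213). In the knockdown 0 of 44 passed (1 with an unadjusted limma p under 0.05), with a median of -0.10, and 3 rose without shGPD1L 3. The list lay lower in the OE libraries, in which clustered histone genes lay higher. Relative to shNC its mean was 0.0973, 0.0857 and -0.459 in shGPD1L 1, 2 and 3, and HIST1H2BK was low in all 3. The part of S phase in the histone changes was not tested.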

How the data were processed

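Poly(A) RNA of 12 SW480 libraries was sequenced. Per the submitters' processing notes, HISAT2, StringTie and DESeq2 were used with GRCh38; the sources used here give no version, annotation or strand setting. The authors deposited FPKM per gene in 2 tables, which may have been scaled separately, so no test compared one table with the other group by group. Libraries were grouped by title, because the genotype field counts up within the gene's name. The depth is unknown, so no counting interval is given.

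Values were taken as log2(FPKM + 1), which understates changes of low genes, for genes averaging 1 FPKM or more in a table, and tested with limma 3.58.1 (R 4.3.3; intensity trend, Benjamini-Hochberg adjustment over all genes tested, called under 0.05). The difference of effects used the 4 group means of genes that passed in both tables. An exact permutation test of 3 against 3 libraries cannot give a two-sided p under 0.1 and was not used. The limma procedure was tested on simulated data with independent noise for each gene and no outlying library. That setting does not cover a library such as shGPD1L 3. Stem-loops were searched on the sense strand of GENCODE release 29 transcripts, motifs in RefSeq promoters. Members and gene lists were chosen with earlier results of these data known. Values in every library are given for each called member, H1F0, H2AFY2 and the 3 highest genes of each class; H2AFX and HIST3H2A were added after their values were seen. From each other list, at most 3 called genes of the greatest change are named, besides genes named for their role. Alternatives were other pseudocounts, filters, scalings and variance settings, a replicate block, and leaving out each library.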

Additional observations from a re-analysis of the deposited data

How the results depend on the processing

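Each comparison was repeated under 16 alternative settings, and the difference of effects under 22. In the knockdown, 3 clustered genes were called as analysed, 1 after quantile normalization and 0 with the replicate block, and from 0 to 3 when 1 library was left out (3 without shGPD1L 3). Variant calls there ran from 0 to 1 on leaving out a library. In the overexpression, leaving out 1 library gave 6 to 8 clustered and 1 to 3 variant calls, against 7 and 3. The difference of effects was called for 7 members, for 4 with a filter at 5 FPKM, which tests fewer genes, and for 6 to 10 on leaving out a library. Replicate numbers did not pair the libraries: same-numbered libraries correlated in their deviations at -0.016 to -0.18 in the knockdown and -0.061 to 0.022 in the overexpression. The replicate block called 0 members in the knockdown, 10 in the overexpression and 6 in the difference of effects, where HIST1H2AC did not pass (limma adjusted p = 0.0659); HIST1H2BK, HIST2H2AA3 and HIST2H2AA4 in the knockdown had 0.169, 0.204 and 0.209. HIST1H2BK kept its direction throughout, with an adjusted p of 0.00962 to 0.197 in the knockdown and 0.00029 to 0.00335 in the overexpression. Among the 12 genes followed through the settings, those whose sign reversed were variants. HIST1H2BD, HIST1H4I and HIST1H2AC were not tested in every comparison with the filter at 5 FPKM. In the knockdown the variants whose sign reversed were H3F3A at 0.0117 (equal totals), 0.0414 (median-of-ratios scaling), 0.0226 (without shNC 2) and 0.119 (without shGPD1L 3), H2AFY2 at 0.0114 (without shNC 1) and H2AFZ at 0.0543 (without shGPD1L 3). In the difference of effects they were H1FX at -0.0220 (median-of-ratios scaling), -0.0425 (without shGPD1L 3), -0.00480 (without Vector 3) and -0.0230 (without OE 3), and H2AFZ at -0.176 (without shGPD1L 3). Of the other members, HIST3H2A (-0.13), HIST2H2AC (0.05), H2AFY (0.03) and H3F3B (0.14) also changed sign in the knockdown without shGPD1L 3. In the difference of effects HIST3H2A (0.13) and H3F3B (-0.05) did so without that library. None of these reversed values passed the test, and the cause was not tested. Over the fits that leave out 1 library, the genes followed ranged from -0.0695 (H3F3A), -0.119 (H2AFY2) and -0.531 (H2AFZ) in the knockdown, and up to 0.149 (H1FX) and 0.409 (H2AFZ) in the difference of effects. The unknown depth limits the genes near 1 FPKM, and the variant median in the knockdown changed sign to 0.00 with equal totals, 0.03 with median-of-ratios scaling, 0.01 without shNC 1 and 0.12 without shGPD1L 3.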

Other observations

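Genes other than histones that lie between HIST1H1C and HIST1H2BN on chromosome 6 (chr6:26055787-27865798) were read beside the clustered genes they are mixed with. In the knockdown 0 of 11 tested were called by limma (1 with an unadjusted p under 0.05), and their median change was 0.14 on the log2(FPKM + 1) scale, with 8 of 11 higher. In the overexpression 1 of 12 rose and 2 fell, beside 12.2% and 10.3% of all genes, with a median of -0.02 and a range from -0.45 to 0.33.

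Some clustered genes had different levels in the 2 control lines, which lie in separate tables and were not tested against each other. HIST1H1C averaged 8.78 ± 0.106 FPKM (SD, n = 3) in shNC and 4.15 ± 0.779 in Vector, so that its OE mean of 8.45 ± 0.96 lay near that of shNC. HIST3H2A averaged 3.37 ± 1.04 FPKM in shNC and 8.27 ± 1.42 in Vector, and HIST1H2BK 29.7 ± 2.92 and 19.0 ± 2.49.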
